A study of Mus musculus with 6 samples.

Results

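The 10 genes described here encode the signalling chains of the T cell receptor (Cd3d, Cd3e, Cd3g and Cd247), its coreceptors (Cd4, Cd8a and Cd8b1) and further proteins that define T cells (Cd2, Cd5 and Themis). They were taken from the tables by gene symbol. Each of the 10 had 1 row among the 55450 genes of the deposited count and TPM tables. The tumours were grown from MTE-Ras, a cancer line of mouse tracheal epithelium that carries an oncogenic RAS mutation, under the skin of the right flank of C57BL/6 mice. Tumours of 3 mice were injected with phosphate-buffered saline (PBS) and tumours of 3 other mice with PV-10, a rose bengal solution given into the lesion, and each library came from the tumour of 1 mouse. Dose, time of collection and age of the mice are not given in the sources used here. All 6 tumours arose from the same line, so the comparison is between 2 treatments of 1 tumour model.

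A T cell recognises peptide on MHC molecules through a receptor of an alpha and a beta chain, which have almost no cytoplasmic part of their own. The signal is carried by the CD3 gamma, delta and epsilon chains and by the zeta chain, the product of Cd247, whose tyrosines are phosphorylated by Lck. CD4 binds MHC class II, CD8 binds MHC class I, and each brings Lck to the receptor. In tumours, CD4 T cells act as helper or regulatory cells, and CD8 T cells can kill tumour cells. Since RNA was taken from whole tumours, fewer T cells and less of an RNA per T cell cannot be told apart.

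The libraries differed in ways that touch genes as rare as these. Counts summed to between 36730318 and 98717951 per tumour. The gene Gm42418 took 2.55% to 3.49% of counts in PBS tumours and 8.94% to 11.4% in PV-10 tumours. Across all tested genes, PV-10 tumour 3 correlated with the PBS tumours at 0.909 to 0.930 in log2 CPM (counts scaled to library size), above its 0.874 and 0.822 with PV-10 tumours 1 and 2. Krt8 and Krt18, keratins of simple epithelia, were abundant, with Krt18 at 97.4 to 219 TPM (a transcript level scaled by gene length and library). Epcam and Krt5, other epithelial genes, were at no more than 0.54 and 0.25 TPM, so the epithelial label was borne out by some of its markers only. The 10 epithelial genes read summed to 350 to 425 TPM in PBS and 155 to 299 TPM in PV-10 tumours, and 0 were called.

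In PV-10 tumours 1 and 2 a low level of reads lay on olfactory, vomeronasal and trace amine receptor genes, which are known to be silent outside sensory tissue. A read was found on 80.3% and 53.9% of them in these tumours, against 8.42% to 20.9% in the other 4. A gene read at that density alone would have stood at 0.00742, 0.0107 and 0.00368 TPM in PBS tumours 1, 2 and 3. The same level was 0.112, 0.117 and 0.0109 TPM in PV-10 tumours 1, 2 and 3. The first and second PV-10 tumours thus had about the same background, and the third had that of the PBS tumours. At that density, background would supply 24.5% of the reads of the 10 genes in PV-10 tumour 1 and 11.7% in PV-10 tumour 2, against 0.499% to 0.816% in the other 4 tumours.

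**Figure D1:**
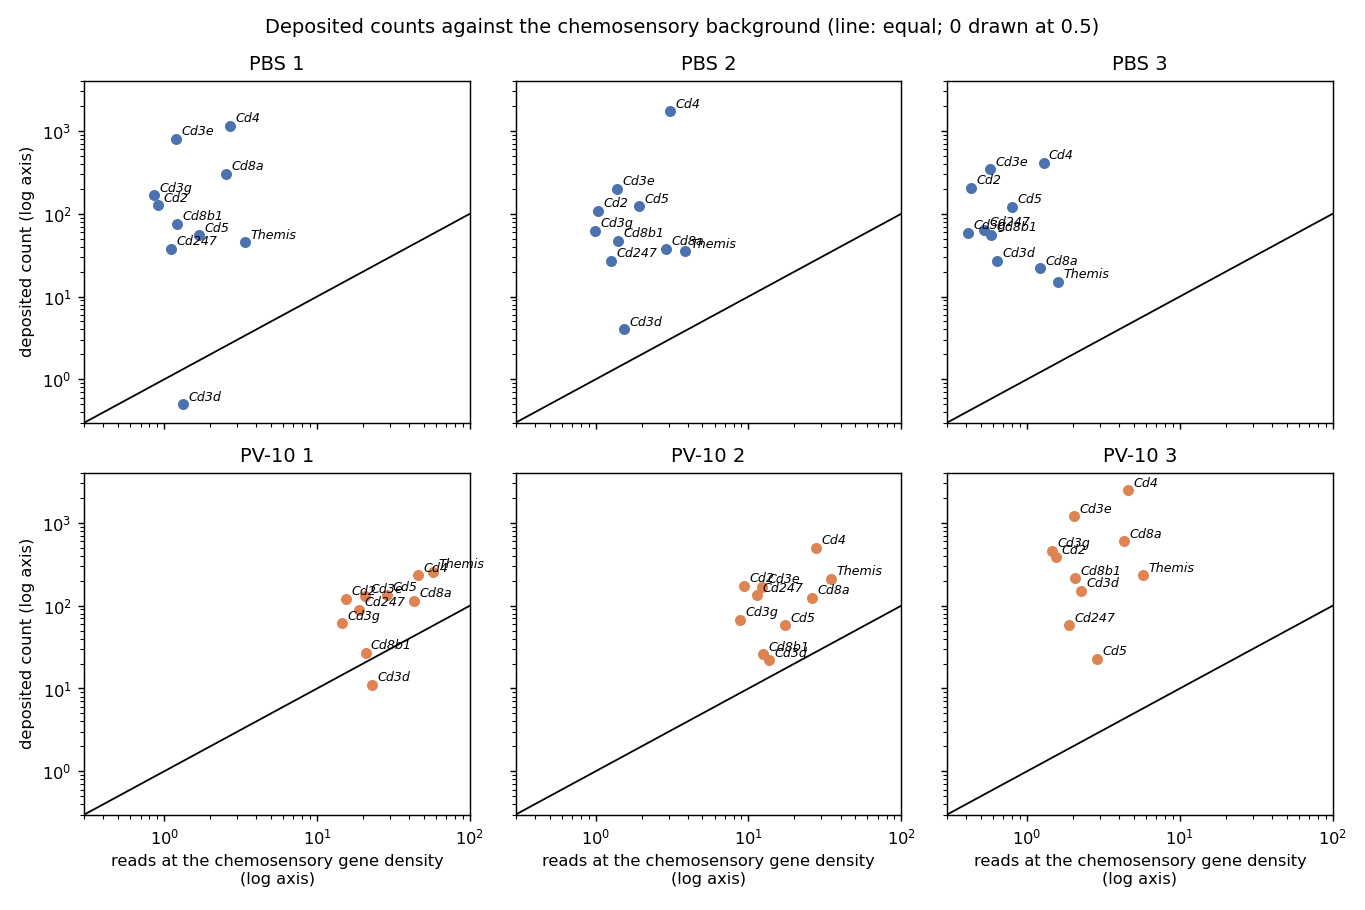
Deposited count of each T cell gene (vertical, log axis) against the reads it would have at the chemosensory gene density (horizontal, log axis), 1 panel a tumour and 1 point a gene, with a line where both are equal and a count of 0 drawn at 0.5. In PV-10 tumours 1 and 2 the points lie farther right and nearer the line than in the other 4 tumours, and Cd3d, with 11 counts in PV-10 tumour 1, lies under it.

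The genes for the CD3 chains lie side by side on mouse chromosome 9 (mm10). Cd3g (44969572 to 44980431, minus strand) and Cd3d (44981786 to 44987339, plus strand) start 1355 bases apart and are read away from each other. Cd3e (44998740 to 45009627, minus strand) ends 11401 bases from the end of Cd3d. The 250 bases before the RefSeq start of each of the 3 genes are given because their levels are compared below, with those of Themis, the gene that passed the test. They are read 5′ to 3′ on the gene's strand (RefSeq, GRCm38.p6), and capitals mark GGAA or its complement TTCC, the core bound by ETS factors.
Cd3d, chr9:44981536-44981785, plus strand: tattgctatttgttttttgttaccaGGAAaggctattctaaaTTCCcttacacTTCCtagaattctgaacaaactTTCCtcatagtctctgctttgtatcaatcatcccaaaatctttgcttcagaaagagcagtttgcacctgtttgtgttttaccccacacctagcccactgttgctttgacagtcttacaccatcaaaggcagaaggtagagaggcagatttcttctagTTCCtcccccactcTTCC
Cd3e, chr9:45009612-45009861, minus strand: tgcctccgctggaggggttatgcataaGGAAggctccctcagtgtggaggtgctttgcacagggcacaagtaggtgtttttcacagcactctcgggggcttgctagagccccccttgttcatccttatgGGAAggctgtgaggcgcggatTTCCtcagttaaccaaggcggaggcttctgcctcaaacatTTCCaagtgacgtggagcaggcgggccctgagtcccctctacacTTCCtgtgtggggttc
Cd3g, chr9:44980432-44980681, minus strand: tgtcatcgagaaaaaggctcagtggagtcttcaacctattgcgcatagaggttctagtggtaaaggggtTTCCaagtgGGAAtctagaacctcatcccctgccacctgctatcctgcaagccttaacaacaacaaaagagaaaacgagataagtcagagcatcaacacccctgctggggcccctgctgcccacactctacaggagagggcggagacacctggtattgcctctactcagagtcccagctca
Themis, chr10:28668110-28668359, plus strand: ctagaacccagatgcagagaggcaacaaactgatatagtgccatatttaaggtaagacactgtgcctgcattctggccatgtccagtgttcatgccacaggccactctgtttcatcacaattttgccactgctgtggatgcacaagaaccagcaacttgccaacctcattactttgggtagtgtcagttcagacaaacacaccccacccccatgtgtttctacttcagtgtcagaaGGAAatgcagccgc

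RefSeq promoters were matched for 7 of the 10 genes (all but Cd4, Cd8b1 and Cd2). The ETS core, searched on both strands, was present in all 7, as in 93.4% of 32851 mouse promoters of the same length. It occurred 6 times in the Cd3d promoter, 5 times in that of Cd3e, 2 times in that of Cd3g and 1 time in that of Themis, where the median over all promoters was 3. The RUNX word TGTGGT was in none of the 7 and in 14.0% of all promoters. The E-box CANNTG was in all 7 and in 66.2% of all promoters, and TATAAA was in none of the 7 and in 12.4%.

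By TPM, all 3 CD3 chain transcripts were most abundant in PV-10 tumour 3, and Cd3e and Cd3g were scarcest in PV-10 tumour 1. By CPM the lowest values of Cd3e and Cd3g were in PBS tumours 2 and 3. Cd3e, the epsilon chain that pairs with both other CD3 chains, stood at 4.80, 1.57 and 2.20 TPM in PBS tumours 1, 2 and 3. It stood at 0.67, 1.91 and 6.40 TPM in PV-10 tumours 1, 2 and 3. By TPM the highest and the lowest value were both from PV-10 tumours, and the groups overlapped. On the CPM scale the fitted difference, PV-10 minus PBS, was 0.50 log2 units (SE 0.70, adjusted p = 0.653), and it turned to -0.30 in limma on log2(TPM + 0.1).

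Cd3g, the gamma chain, measured 1.58, 0.65 and 0.53 TPM in the PBS tumours and 0.24, 0.81 and 3.57 TPM in the PV-10 tumours, each in the order 1, 2 and 3. The groups again overlapped, with both extremes of TPM among the treated tumours. Its fitted difference was 1.39 log2 units (SE 0.82, adjusted p = 0.285). The Cd3g counts in PV-10 tumour 1 correspond to an effective length of 2002 bases, against 942 to 1143 in the other 5 tumours. The transcripts that RSEM assigned there were therefore longer, and its TPM is low for its 61 counts.

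Cd3d, the delta chain, was the rarest of the 3. It was listed at 0 in PBS tumour 1, where 3 counts would be 0.0167 TPM, and at 0.03 and 0.16 TPM in PBS tumours 2 and 3. Its level was 0.05, 0.19 and 0.73 TPM in PV-10 tumours 1, 2 and 3. In PV-10 tumour 1 it lay under the background density, and 1418 of 1988 chemosensory receptor genes were at or above it. Cd3d stood highest above background in PV-10 tumour 3, with 152 counts at 66.7 times it, and next in PBS tumour 3, with 27 counts at 43.4 times it. The fitted difference was 3.04 log2 units with an SE of 1.95 (adjusted p = 0.322). Only 1 PBS tumour but all 3 PV-10 tumours reached the count limit for testing, the least even support of the 10 genes.

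Summed over the 3 chains, CD3 transcripts came to 6.38, 2.25 and 2.89 TPM in PBS tumours 1, 2 and 3 and to 0.96, 2.91 and 10.7 TPM in PV-10 tumours 1, 2 and 3. The mean difference on the log2(TPM + 0.1) scale was -0.13 (PBS 1.84 ± 0.76, PV-10 1.70 ± 1.68, SD, n = 3 each, exact two-sided permutation p = 1, where the smallest possible is 0.1). Its sign turned without PBS tumour 1, to 0.30, without PV-10 tumour 1, to 0.68, and in TMM-scaled CPM, to 0.66. The spread among the PV-10 tumours was larger than the difference between the groups. Within the sum, Cd3e made up 59.8% to 76.1% in every tumour.

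Cd247, on chromosome 1 (165788681 to 165877277, plus strand), encodes the zeta chain, which carries most of the receptor's signalling motifs and is also used by NK cells. It stood at 0.21, 0.25 and 0.63 TPM in PBS tumours 1, 2 and 3 and at 0.45, 0.97 and 0.51 TPM in PV-10 tumours 1, 2 and 3, with its highest value in PV-10 tumour 2. By CPM the 3 PV-10 tumours (0.662 to 3.64) lay just above the 3 PBS tumours (0.279 to 0.618), whereas by TPM the groups overlapped. The fitted difference was 2.13 log2 units (SE 0.96, adjusted p = 0.170). Without PV-10 tumour 3 it was 2.54 and passed the test (adjusted p = 0.0452), as did 25.0% of tested genes in that direction.

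Exons of Cd247 overlap those of Pou2f1 on the other strand and of Gm16565 on the same strand, and whether counting used the strand is not given in the sources used here. Pou2f1, which encodes the broadly expressed factor OCT1, was at 12.2 to 13.5 TPM in PBS tumours and at 1.34, 1.62 and 7.32 TPM in PV-10 tumours 1, 2 and 3. Gm16565 had 22 and 95 counts in PV-10 tumours 1 and 2, 25 in PBS tumour 3 and 0 in the others. Their part in the Cd247 values was not tested.

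The receptor's own chains can be read through their constant regions, which are shared by all rearranged receptors of a type. Trac, the alpha constant region, was at 2.50, 2.72 and 3.57 TPM in PBS tumours 1, 2 and 3, and at 0.40, 0.38 and 4.0 TPM in PV-10 tumours 1, 2 and 3. Trbc1, 1 of the beta constant regions, was at 1.03, 3.05 and 1.55 TPM in the PBS tumours and 1.06, 4.51 and 3.63 TPM in the PV-10 tumours. PV-10 tumours 1 and 2 therefore held little Trac, while tumour 2 held the most Trbc1 of the 6. Neither passed the test (Trac -0.39 log2 units, SE 0.90, adjusted p = 0.794, and Trbc1 1.58, SE 0.64, adjusted p = 0.136). Summed over Trac, Trbc1 and Trbc2, alpha and beta constant regions came to 6.63, 6.40 and 6.45 TPM in PBS tumours 1, 2 and 3 and to 1.84, 6.08 and 9.58 TPM in PV-10 tumours 1, 2 and 3, so PV-10 tumours 1 and 3 lay on either side of 3 close PBS values. Of the 8 constant region genes of alpha, beta, gamma and delta chains, 7 were tested and 0 were called in either direction, and Tcrg-C3 was listed at 0 in every tumour.

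**Figure D2:**
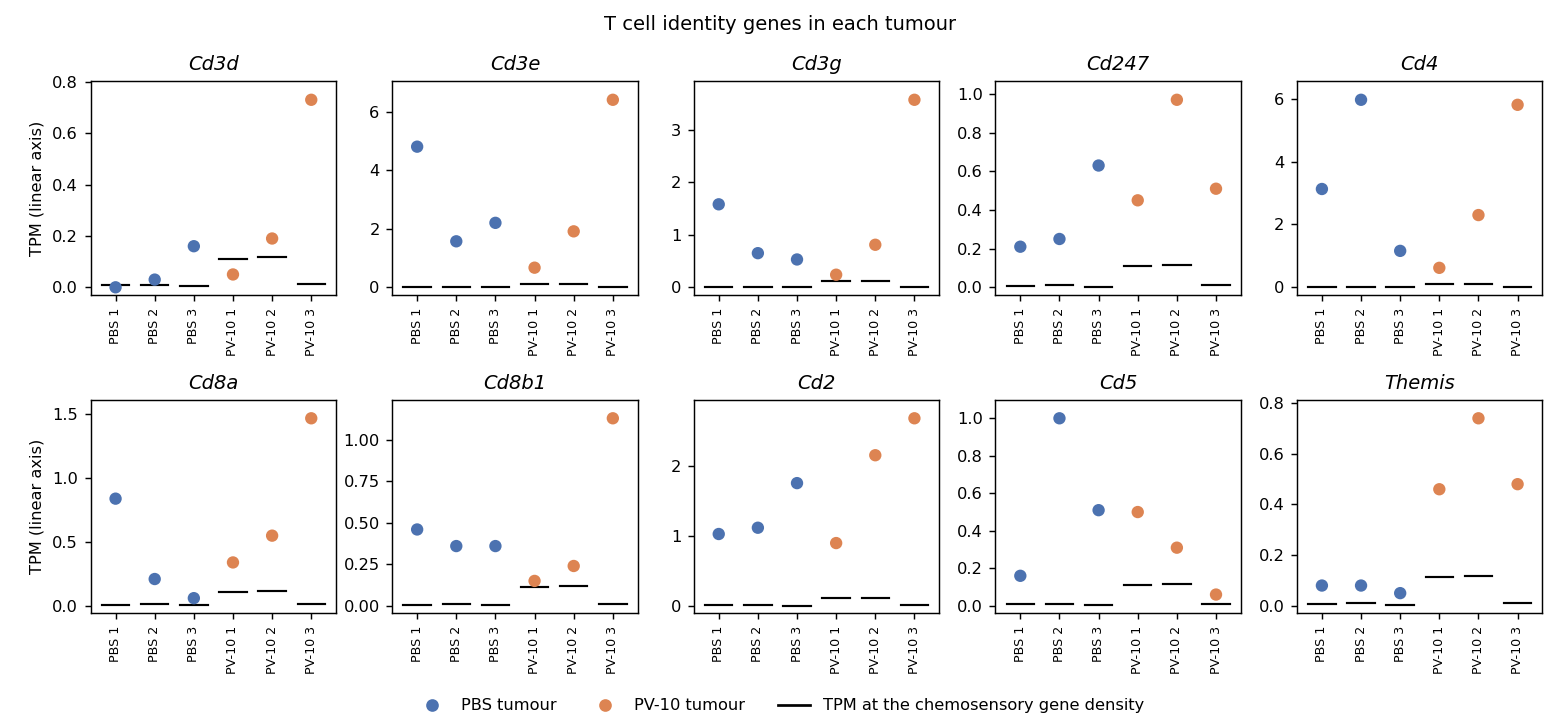
TPM of each of the 10 T cell genes in the 6 tumours, 1 panel a gene with its own linear axis, with 1 point a tumour and a black line at the TPM that the chemosensory gene density would give. Themis is the gene whose PV-10 tumours (0.46 to 0.74 TPM) all lie above the PBS tumours (0.05 to 0.08 TPM), and in 6 genes the highest point is PV-10 tumour 3.

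Cd4 was the most abundant coreceptor transcript in all 6 tumours. Its levels were 3.13, 5.97 and 1.16 TPM in PBS tumours 1, 2 and 3 and 0.62, 2.30 and 5.81 TPM in PV-10 tumours 1, 2 and 3. The groups overlapped over nearly their whole range. The difference was 0.39 log2 units by CPM (SE 0.68, adjusted p = 0.726) and -0.42 by limma on log2(TPM + 0.1). Some mouse dendritic cells and macrophages also carry Cd4, so its level is not that of helper T cells alone.

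Cd8a and Cd8b1 encode the alpha and beta chains of the CD8 coreceptor and are neighbours on chromosome 6, with 35933 bases between the end of Cd8b1 and the start of Cd8a. Cd8a measured 0.84, 0.21 and 0.06 TPM in PBS tumours 1, 2 and 3 and 0.34, 0.55 and 1.47 TPM in PV-10 tumours 1, 2 and 3. Cd8b1 measured 0.46, 0.36 and 0.36 TPM in the PBS tumours and 0.15, 0.24 and 1.13 TPM in the PV-10 tumours. Both were highest in PV-10 tumour 3, but tumours 1 and 2 differed between the genes: Cd8a lay among the PBS tumours there and Cd8b1 below them. The fitted differences were 1.60 log2 units for Cd8a (SE 0.98, adjusted p = 0.305) and 0.94 for Cd8b1 (SE 1.06, adjusted p = 0.571), and that of Cd8b1 turned to -0.060 in limma on log2(TPM + 0.1). Without PBS tumour 1 the difference of Cd8a was 3.72 log2 units (adjusted p = 0.0831), in a fit that called 1 of 28118 tested genes. Leaving out any other single tumour gave 0.99 to 1.93 (adjusted p = 0.309 to 0.526). The ratio of Cd8a to Cd8b1 was 1.83, 0.583 and 0.167 in PBS tumours 1, 2 and 3 and 2.27, 2.29 and 1.30 in PV-10 tumours 1, 2 and 3. Cd8b1 was at 1.34 and 2.06 times background in PV-10 tumours 1 and 2, against 103 times in PV-10 tumour 3.

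The ratio of Cd4 to Cd8a TPM sets the coreceptors against each other within a tumour, with any Cd4 RNA of other cells included. It was 3.73, 28.4 and 19.3 in PBS tumours 1, 2 and 3 and 1.82, 4.18 and 3.95 in PV-10 tumours 1, 2 and 3. PBS tumour 1 thus fell among the PV-10 tumours. The 28.4 and 19.3 rest on 38 and 22 Cd8a counts in PBS tumours 2 and 3. In PV-10 tumours 1 and 2 Cd8a was at 3.04 and 4.71 times background, which would supply 43.2 of its 114 and 26.1 of its 125 counts. The log2 ratio differed by -1.51 (PBS 3.02 ± 1.26, PV-10 1.50 ± 0.69, SD, n = 3 each, exact two-sided permutation p = 0.3). It kept a negative sign in all 9 alternatives run, between -2.13 and -0.63, and passed the threshold in none, which with these group sizes it could not do.

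**Figure D3:**
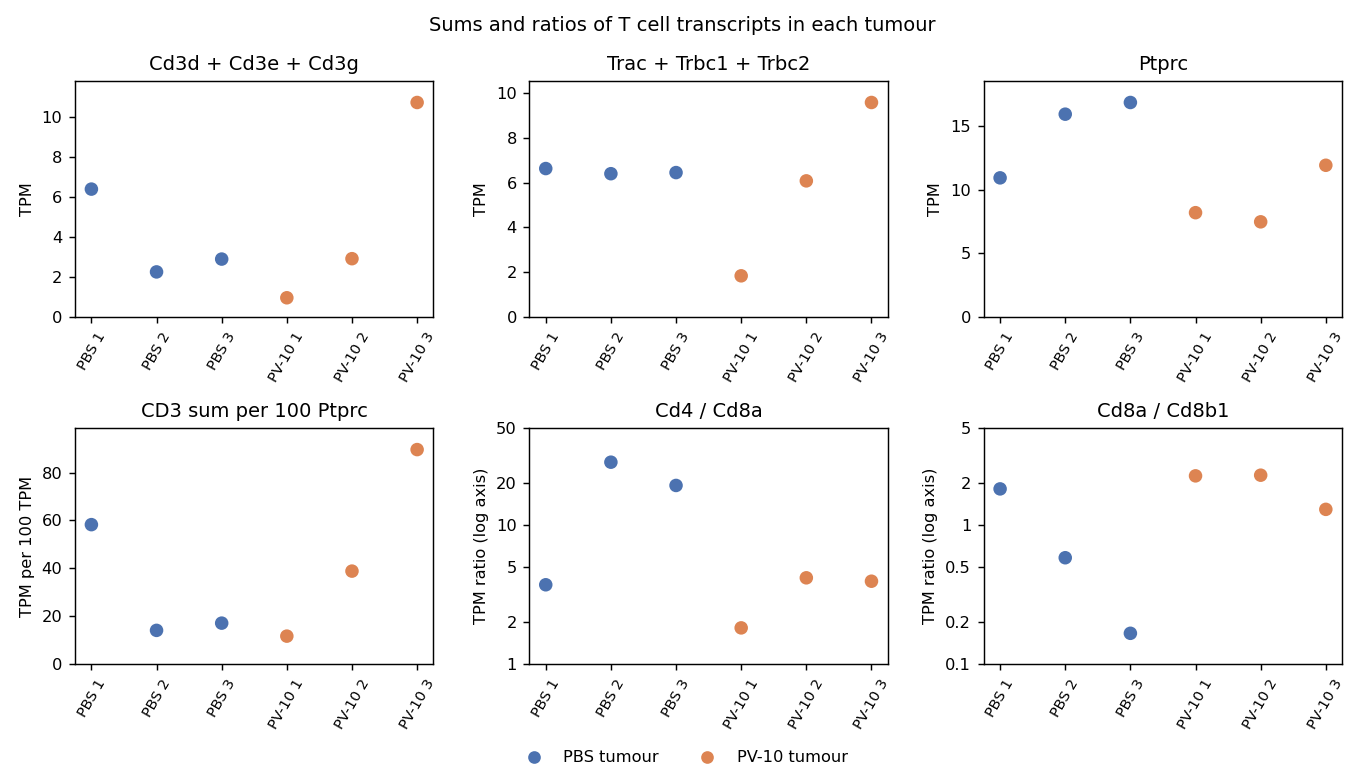
Sums and ratios of TPM in each tumour, 1 point a tumour: summed CD3 chains, summed alpha and beta constant regions, Ptprc, the CD3 sum per 100 TPM of Ptprc (linear axes), and the ratios of Cd4 to Cd8a and of Cd8a to Cd8b1 (log axes). The CD3 sum ranges from 0.96 to 10.7 TPM within the PV-10 tumours, and the ratio of Cd4 to Cd8a from 3.73 to 28.4 within the PBS tumours.

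Set against Ptprc, which encodes CD45 and marks all leukocytes, the CD3 sum was 58.3, 14.1 and 17.1 TPM per 100 TPM of Ptprc in PBS tumours 1, 2 and 3. In PV-10 tumours 1, 2 and 3 it was 11.7, 38.9 and 89.6. PV-10 tumour 1 had the lowest ratio and PV-10 tumour 3 the highest. The log2 difference was 0.53 (PBS -2.02 ± 1.09, PV-10 -1.49 ± 1.41, SD, n = 3 each, exact two-sided permutation p = 0.7), and without PV-10 tumour 3 it was -0.14.

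Cd2, an adhesion receptor that binds CD48 on other cells and is shared with NK cells, stood at 1.03, 1.12 and 1.76 TPM in PBS tumours 1, 2 and 3. In the PV-10 tumours it stood at 0.90, 2.16 and 2.69 TPM, so PV-10 tumours 2 and 3 were above all PBS tumours and tumour 1 was below them. Its CPM did not overlap between groups (1.12 to 2.00 in PBS, 2.07 to 4.76 in PV-10), but the gap was narrow. The 2.07 was from PV-10 tumour 1, where background would supply 15.5 of its 120 counts. The fitted difference was 1.30 log2 units (SE 0.53, adjusted p = 0.137). The unadjusted p of Cd2 was under 0.05, as was that of Themis. The same held for 6627 of all 22056 tested genes, so it does not set Cd2 apart.

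Cd5, an inhibitory receptor that tunes T cell receptor signals and is also carried by some B cells, had another order among the tumours than the CD3 chains. It was at 0.16, 1.00 and 0.51 TPM in PBS tumours 1, 2 and 3 and at 0.50, 0.31 and 0.06 TPM in PV-10 tumours 1, 2 and 3. PV-10 tumour 3, the highest of the 6 for Cd3e, was the lowest for Cd5, with 23 counts. The rest of the Cd5 order depended on the scale, as its effective length ran from 1380 bases in PBS tumour 2 to 3062 in PBS tumour 1. PBS tumours 2 and 3 had 123 and 121 counts, and by CPM PV-10 tumour 1 was highest, at 2.34. The difference was 0.45 log2 units (SE 0.96, adjusted p = 0.777), and -1.94 with PV-10 tumour 3 alone against the PBS tumours.

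Themis was called higher in PV-10 tumours, a call that did not hold in all alternatives. The gene encodes a T lineage adaptor that binds Grb2 and sets the threshold of receptor signalling during thymocyte selection. It lies on chromosome 10 (28668360 to 28883818, plus strand). Its level was 0.08, 0.08 and 0.05 TPM in PBS tumours 1, 2 and 3 and 0.46, 0.74 and 0.48 TPM in PV-10 tumours 1, 2 and 3. All 3 treated tumours lay above all PBS tumours, and the PV-10 tumours differed from one another far less than for Cd3e. By CPM it was 0.339 ± 0.184 in PBS and 4.28 ± 1.58 in PV-10 tumours (SD, n = 3 each), a difference of 3.65 log2 units (SE 0.68, adjusted p = 0.0443). The lowest adjusted p of all 22056 tested genes was also 0.0443. All 1122 genes called in this fit thus lay between that value and the threshold of 0.05.

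Background was a visible share of the Themis counts in PV-10 tumours 1 and 2. Its 255 and 212 counts there compare with 57.4 and 34.6 that the chemosensory density would give over its length, and its 232 counts in PV-10 tumour 3 with 5.74. With that level taken off, Themis stood at 0.348, 0.623 and 0.469 TPM in PV-10 tumours 1, 2 and 3 and at 0.0726, 0.0693 and 0.0463 TPM in PBS tumours 1, 2 and 3. The 2 groups remained apart. Of 1988 chemosensory receptor genes, 19, 42 and 4 were at or above Themis in PV-10 tumours 1, 2 and 3. In PV-10 tumour 1, 56 counts were also assigned to 4930519F09Rik, which overlaps Themis on the other strand and was at 0 in the other 5 tumours.

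The call for Themis changed when the length trend was removed and when single tumours were left out. With each library's trend with gene length removed it was 3.27 log2 units (adjusted p = 0.162), where 0.00907% of tested genes were called higher. With PV-10 tumour 3 alone against PBS it was 2.97 (adjusted p = 0.231), where 0.0624% were called higher. That fit holds 1 treated tumour, which is assumed to vary like the PBS tumours, so its lost call says nothing of stability. Leaving out single tumours gave 3.25 to 4.03, and the test was passed only without PV-10 tumour 3 (3.90, adjusted p = 0.00575), where 25.0% were called higher. The fits without another single tumour called only 1 to 5 genes each, of 22750 to 28118 tested, so the lost calls do not set Themis apart.

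Of the 10 genes, 1 was called higher and 0 lower in PV-10 tumours, where 3.17% of 22056 tested genes were called higher and 1.92% lower. All 10 fitted log2 differences were above 0 on the CPM scale, with a median of 1.34 against 0.30 over all tested genes. Medians of the other lists ran from -0.53 (T lineage transcription factors) to 3.40 (immature thymocyte genes). They were 1.61 for B cell, 1.17 for NK cell, 1.09 for epithelial and 1.01 for conventional dendritic cell genes, and -0.15 for macrophage and monocyte genes. With no low-count filter the all-gene median was 1.63, over 39195 genes. In limma on log2(TPM + 0.1) the medians of the 10 genes and of all tested genes were 0.30 and -0.43, and with the length trend removed 0.74 and -0.27. Without PV-10 tumour 3 the medians were closer, at 0.97 and 0.89, with Cd3e, Cd4 and Cd8b1 below 0. With that tumour alone against PBS they were 1.75 and -0.02. The expression filter was rerun for each fit, so these all-gene medians cover 27510 and 24029 genes, against 22056 in the main fit. How much of the change in distance came from this was not tested. By TPM, groups did not overlap for Themis alone, with PV-10 above, as for 9.58% of tested genes. By CPM they did not overlap for Cd247, Cd2 and Themis, with PV-10 above, as for 22.0%. PV-10 tumour 3 was the highest of the 6 tumours by TPM for 6 of the 10 (Cd3d, Cd3e, Cd3g, Cd8a, Cd8b1 and Cd2), as for 5.10% of tested genes.

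**Figure D4:**
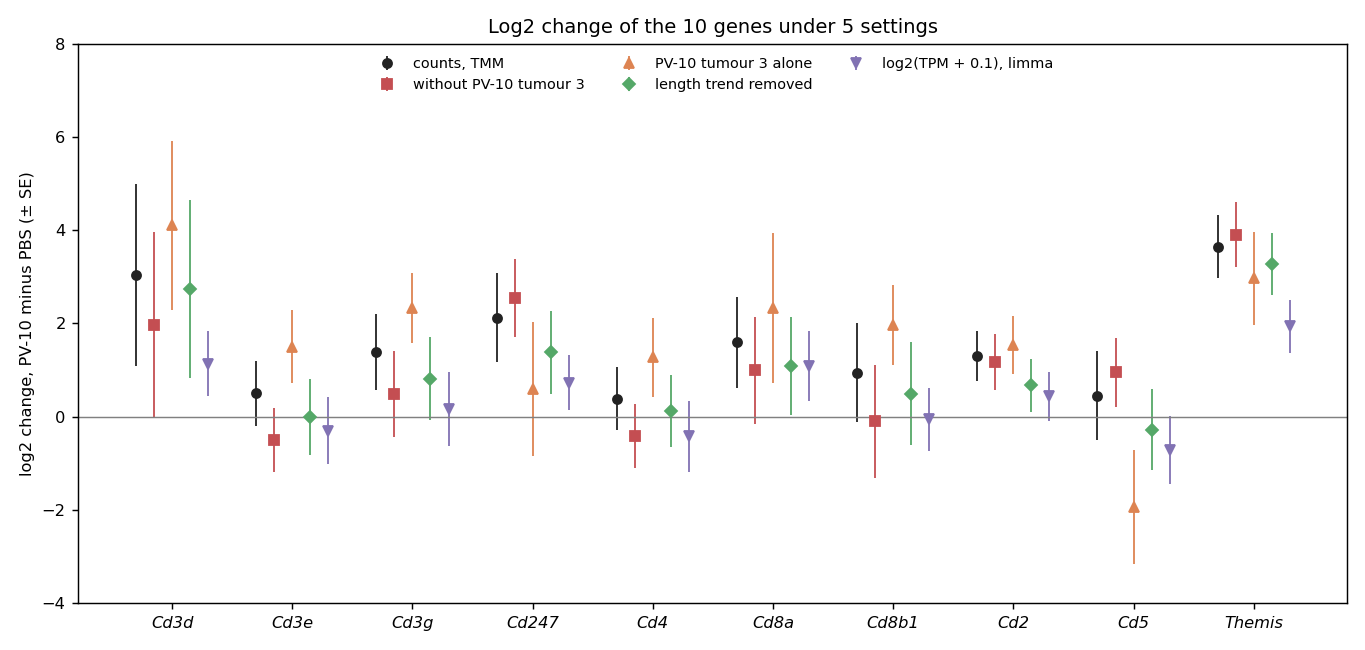
Fitted log2 change, PV-10 minus PBS, of each of the 10 genes under 5 settings (symbols, with bars of 1 SE): counts with TMM scaling, the same without PV-10 tumour 3, PV-10 tumour 3 alone against PBS, the length trend removed, and limma on log2(TPM + 0.1). Themis lies above 0 under all 5, at 3.65 with TMM scaling, whereas Cd3e, Cd4, Cd8b1 and Cd5 lie on both sides of 0.

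Around the receptor, 19 of 20 genes of proximal signalling were tested, 1 was called higher and 0 lower, against 3.17% and 1.92% of all tested genes, and the list's median was 0.65 log2 units. The gene called was Skap1, an adaptor that links the receptor to integrin adhesion. Its level was 0.54, 0.63 and 0.36 TPM in PBS tumours 1, 2 and 3 and 2.01, 1.32 and 1.25 TPM in PV-10 tumours 1, 2 and 3 (2.51 log2 units, SE 0.56, adjusted p = 0.0446). Like Themis, and unlike Cd3e, it was at a similar level in all 3 treated tumours. It was 11.3 to 114 times background in the PV-10 tumours. Skap1 no longer passed the test with the length trend removed (1.79, adjusted p = 0.162) and in limma on log2(TPM + 0.1) (1.41, adjusted p = 0.0646). With single tumours left out it passed only without PV-10 tumour 3 (2.78, adjusted p = 0.00812). The fits without another single tumour called only 1 to 5 genes each.

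Costimulatory and inhibitory receptors of T cells had 0 of 12 genes called, with a median of 0.43 log2 units. Their most abundant members were Havcr2 (14.3 to 37.8 TPM over the 6 tumours), which encodes TIM-3 and is also found on myeloid cells, and Tnfrsf9 (9.29 to 44.4 TPM), which encodes 4-1BB. T lineage transcription factors had 0 of 12 called, with a median of -0.53 log2 units. Of these 12, 6 had all PV-10 tumours below all PBS tumours by TPM, as did 31.0% of all tested genes. Runx3, a factor of CD8 T cells, was at 18.1 to 21.3 TPM in PBS tumours and at 1.65, 2.34 and 9.02 TPM in PV-10 tumours 1, 2 and 3. Zbtb7b, which encodes ThPOK of CD4 T cells, was at 16.7 to 18.8 TPM in PBS tumours and at 1.75, 7.77 and 8.34 TPM in the PV-10 tumours. Both were far above the CD3 chains in PBS tumours, and neither is confined to T cells.

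Markers of other leukocytes were read in the same way, and their part in the T cell values was not tested. Of 10 NK cell genes 1 was called higher, against 3.17% of all tested genes. It was Klrd1, which encodes CD94: it was at 2.36, 3.63 and 2.97 TPM in PBS tumours 1, 2 and 3 and at 4.98, 9.09 and 7.02 TPM in the PV-10 tumours (2.19 log2 units, SE 0.34, adjusted p = 0.0443). Klrd1 likewise missed the threshold with the length trend removed (1.38, adjusted p = 0.162) and in limma on log2(TPM + 0.1) (1.19, adjusted p = 0.0645). With single tumours left out it passed only without PV-10 tumour 3 (2.36, adjusted p = 0.00206), where the fits without another single tumour called only 1 to 5 genes each. NK cell genes summed to 8.12 to 17.5 TPM in PBS and 8.64 to 20.2 TPM in PV-10 tumours, with Klre1 at 0 in PBS tumour 1 and Gzma in PBS tumour 2. B cell genes (0 of 10 called) summed to 4.37 to 9.26 and 3.80 to 7.53 TPM, with Fcer2a at 0 in all 3 PBS tumours. Conventional dendritic cell genes (0 of 10 called) summed to 7.77 to 11.4 and 4.85 to 10.1 TPM, with Batf3 at 0 in 3 tumours. Macrophage and monocyte genes (0 of 10 called) summed to 1039 to 1334 TPM in PBS and 723 to 1154 TPM in PV-10 tumours, with none at 0.

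Since Themis is best known from the thymus, genes of immature thymocytes were also read. Of 6, 3 were tested and 0 called. The most abundant were Cd1d1, at 1.19 to 3.01 TPM over the 6 tumours, and Arpp21, at 0.06 to 0.12 TPM in PBS tumours and at 0.68, 1.70 and 0.07 TPM in PV-10 tumours 1, 2 and 3. Rag2, part of the recombinase that rearranges receptor genes, was singled out after its values were seen. It was at 0 in all PBS tumours and in PV-10 tumour 3, and at 1.52 and 2.57 times background in PV-10 tumours 1 and 2. Unlike Themis, Rag2 was thus not seen in PV-10 tumour 3. Ptcra and Dntt, of the same list and also named after their values were seen, differed from Rag2. Both had all PV-10 tumours above all PBS tumours by TPM, as for 9.58% of tested genes, a share that does not cover Dntt. Background alone would give 0.112 and 0.117 TPM in PV-10 tumours 1 and 2. Ptcra was at 0.017 ± 0.029 TPM in PBS and 0.357 ± 0.032 TPM in PV-10 tumours (SD, n = 3 each, 5.25 log2 units, adjusted p = 0.136). Dntt, at means of 0.0033 TPM in PBS and 0.143 TPM in PV-10 tumours, was not tested. Its PV-10 SD was 0.179 TPM, with the highest value in PV-10 tumour 2, and its PV-10 mean was near the background.

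The genes whose log2 level followed the CD3 sum most closely over the 6 tumours were Dnase1l3 (Pearson r = 0.977), Clec4a3 (0.967), Ly6c1 (0.960), Gm4951 (0.952) and Cx3cr1 (0.944), out of 12505 genes with a mean of at least 1 TPM. In all, 19 genes, or 0.152%, reached 0.9. The 6 points share their libraries, depth and background, so these values only describe the pattern. Cx3cr1, a chemokine receptor of monocytes and cytotoxic lymphocytes, shows it: it was at 12.2, 8.32 and 7.91 TPM in PBS tumours 1, 2 and 3 and at 3.92, 6.00 and 14.5 TPM in PV-10 tumours 1, 2 and 3. As for Cd3e, PV-10 tumour 3 was highest, PBS tumour 1 next and PV-10 tumour 1 lowest.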

How the data were processed

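RNA from 6 tumours was sequenced as pairs of 100-base reads from strand-specific libraries, per the labels' protocols. Per the submitters' processing notes and protocols, adapters were found with BBMerge 37.02 and removed with cutadapt 1.8.1, reads were aligned to mm10 with STAR 2.7.7a, and gene values were estimated with RSEM 1.3.0 on Gencode release M21. The authors deposited RSEM expected counts, which are whole numbers in the file, and a table of TPM values with 2 decimals. Columns were matched to tumours by library name.

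Counts were tested in R 4.3.3 by the robust quasi-likelihood method of edgeR 4.0.16 after its default expression filter and TMM scaling, with Benjamini-Hochberg adjustment over all 22056 genes tested, calling genes at an adjusted p under 0.05. Adjusted p in the text are from it unless limma 3.58.1 is named. Per the labels, the authors used DESeq2, which was run here (1.42.0) as an alternative. SE is the log2 change over the root of F. Single values were compared by exact two-sided permutation tests over tumours.

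Background was the count density per effective length on chemosensory receptor genes, leaving out the 5% with the highest level. Effective length is counts over TPM, rescaled per tumour. A floor of 3 counts was used for values of 0, and covers counting error only, as reads carried no molecular identifiers. P-values measure the spread between tumours of separate mice. RSEM shares reads among similar genes, so Trbc1 and Trbc2 are uncertain.

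All 10 T cell genes are named. From each of the other lists, up to 4 called genes are named, or the 2 most abundant where none was called, with Ptprc always named and the 5 genes most like the CD3 sum. The 10 genes and the 11 lists were chosen with earlier results of these data known. The alternatives were other scalings and filters, TPM with limma, removal of length trend or background, a replicate block and leaving out tumours. The fit was tested on simulated data.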

Additional observations from a re-analysis of the deposited data

How the results depend on the processing

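Low counts limit these genes: Cd3d had 0 to 152 counts and Themis 15 to 255. The number of all genes called, 1122 of 22056 (699 higher, 423 lower), was unstable. It was 7967 by DESeq2, 2537 with its size factors, 2441 (980 higher, 1461 lower) by library size alone, 4664 with no filter, 2705 at a mean count of at least 50, 4037 (251 higher, 3786 lower) by limma on log2(TPM + 1), 3998 (418 higher, 3580 lower) with 0.1 in place of 1, 2396 with background subtracted, 2 with the length trend removed, 18 for PV-10 tumour 3 alone and 1 to 11399 with each tumour left out, the highest without PV-10 tumour 3. A fit with length trend and background both removed, chosen after seeing the data, called 1. With the tumour number as a replicate block 2872 were called (1054 higher, 1818 lower). The numbers do not pair the tumours (correlations of same-numbered deviations -0.0486, 0.0711 and 0.0722). Of the 10 T cell genes, 1 was called, and 0 with the length trend removed and with length and background removed. Leaving out each tumour gave 0 to 2. Themis had the same direction in all 18 alternatives and passed the test in 10 of them. With length and background removed it was 3.90 (adjusted p = 0.0916). The other 9 genes changed sign in 14 of 161 alternatives: in limma on log2(TPM + 1) Cd3e -0.14, Cd4 -0.26 and Cd5 -0.25; with 0.1, Cd3e -0.30, Cd4 -0.42, Cd8b1 -0.060 and Cd5 -0.72; with the length trend removed Cd5 -0.28; for PV-10 tumour 3 alone Cd5 -1.94. With single tumours left out, Cd3e ran from -0.50 to 1.32, Cd4 from -0.42 to 0.85, Cd8b1 from -0.10 to 1.34 and Cd5 from -0.14 to 0.95. Cd3d had no value at a mean count of at least 50. The log2 difference of the CD3 sum was 0.66 in TMM-scaled CPM and ran from -0.999 to 0.675 with tumours left out. That of the CD3 sum relative to Ptprc ran from -0.14 to 1.27. The causes were not tested.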
